A study of Monodelphis domestica with 18 samples.

Results

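The genes described here encode 37 enzymes that take apart amino acids, carry nitrogen through the urea cycle and creatine synthesis, and handle glyoxylate, pyrimidine and urate products. They were chosen by gene name from the deposited count sheet, and 34 of the 37 names had a row. No row carried the names ASL, PRODH or CBS, which were therefore not analysed here. Genes were tested when they reached more than 1 CPM, a read count scaled to the total of its library, in at least 6 of the 18 libraries, and 32 of the enzymes did so, among 12840 tested rows of 23899 in the whole sheet. AASS, which starts lysine breakdown in mitochondria, exceeded 1 CPM in 0 libraries and had mean levels of 0.148 to 0.490 CPM. UPB1, the last enzyme of uracil and thymine breakdown, had 0 counts in each library, where 3 counts would be 0.0383 to 0.0749 CPM. This level bounds the counted reads only. An absent transcript and one whose reads were not placed on this row cannot be told apart. URAD passed this filter through exactly 6 libraries, the OSS 48 h and OSS 96 h ones, so it had to differ from static culture and from OSS 12 h once it was tested, and the counts of enzymes that follow include it. ARG2 had 2 rows under one name, and the row with the higher mean level was counted.

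RNA was sequenced from OK cells, an opossum kidney line widely used as a model of the proximal tubule, grown on permeable supports. The day after plating was taken as 0 h, and filters either stayed still (Static, collected at 0, 48 and 96 h) or moved to an orbital shaker at 146 rpm (orbital shear stress, OSS, collected at 12, 48 and 96 h). Each of the 6 conditions had 3 libraries, and per the labels each library combined the RNA of 3 experiments, so spread between libraries is spread between pools. All cells were of the same line and medium, and no animal tissue was part of the design. OSS 12 h had no static partner of its own time, so shear and 12 h more in culture cannot be told apart in its comparison with Static 0 h.

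Proximal tubule cells reabsorb amino acids from the filtrate and metabolise part of them, and the kidney is a main site of creatine precursor synthesis, of arginine synthesis from citrulline, and of hydroxyproline and D-amino acid breakdown. Amino groups are moved by transaminases or released as ammonium, and the carbon skeletons enter mitochondrial dehydrogenase complexes that feed the citric acid cycle. In the urea cycle, ornithine and carbamoyl phosphate form citrulline, which is joined to aspartate, cleaved to arginine and split again to ornithine and urea. Glyoxylate, a by-product of glycine and hydroxyproline breakdown, is removed by transamination, since its oxidation product oxalate is poorly soluble.

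Total counts ran from 40154553 (OSS 96 h replicate 1) to 79745362 (OSS 96 h replicate 3), with a median of 61146676 per library. Levels are given as CPM scaled with TMM factors over all 18 libraries, in the order of replicates 1, 2 and 3 of a condition. "Higher", "lower", "rose" and "fell" are used of genes with a Benjamini-Hochberg adjusted p under 0.05 in the edgeR quasi-likelihood test, and fold changes are log2. Proximal tubule markers fitted the label in part: 14 of 16 had a row and 13 were tested, with megalin (LRP2) at a mean of 4371 CPM in Static 96 h, while the water channel AQP1 lay under the filter. These markers summed to 7352 to 8015 CPM in Static 96 h and 10420 to 12298 CPM under OSS, with 8 of 13 higher and 0 lower under OSS. At 48 h 4 of the 13 were higher and 1, SLC9A3, was lower (log2 fold change -0.81, adjusted p = 0.0217). Of all tested genes 25.5% were higher and 26.2% lower at 96 h, and 23.5% and 24.5% at 48 h. Markers of other nephron segments summed to 35.1 to 44.3 and 76.7 to 115 CPM in Static 96 h and OSS 96 h. Of 4 tested, 2 were higher at both times (SLC12A1, by 2.84 at 96 h with adjusted p = 8.95e-05, and AQP3). Fibroblast, endothelial and leukocyte markers summed to 56.0 to 57.9 and 23.9 to 29.8 CPM, most of it PDGFRB. Of 3 tested at 96 h, PDGFRB was lower (log2 fold change -1.48, adjusted p = 6.17e-05), CD3E was higher (0.92, adjusted p = 0.031) and CD68 was not called. At 48 h only PDGFRB was called, again lower. The part of these shifts in the results was not tested, and in bulk RNA fewer cells of a type and less RNA per cell cannot be told apart. Hepatocytes express most of the same enzymes, and hepatocyte markers summed to 0.110 to 0.994 CPM in Static 96 h and 1.11 to 4.60 CPM under OSS. Most of this was CPS1, at means of 0.442 and 2.22 CPM. It was the only hepatocyte marker tested and was not called (log2 fold change 2.30, adjusted p = 0.0574). Albumin (ALB) had means of 0 and 0.00462 CPM and tyrosine aminotransferase (TAT) 0 and 0.0185 CPM.

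At 96 h, 24 of the 32 tested enzymes were higher under OSS than in static culture, 3 were lower and 5 did not pass the test. Of all 12840 tested genes, 51.6% were called in this comparison, 25.5% higher and 26.2% lower. With total counts in place of TMM factors the enzymes were again 24 higher and 3 lower, while the split over all genes was 3892 higher and 2894 lower. The median log2 fold change of the enzymes was 0.94, beside -0.00 over all tested genes. Called and at least 2-fold higher were 15 enzymes and 1 was at least 2-fold lower, where 9.67% of all genes were called with a change of that size in either direction. At 48 h, 19 were higher, 2 lower and 11 not called, where 48.0% of all genes were called, 23.5% higher and 24.5% lower, and the medians were 0.81 for the enzymes and -0.03 for all genes. The same 19 genes were higher at both times, and ALDH6A1, AMT, GLDC, HOGA1 and PIPOX were called higher at 96 h only. HPD and SARDH were lower at both times, OAT was lower at 96 h only, and DAO, GATM, HGD, HIBCH and MCCC1 passed the test at neither. A call at 96 h and none at 48 h is no test of a difference between times, which is given further on. The summed level of the 32 enzymes was 4505 to 4958 CPM in Static 96 h and 6628 to 8271 CPM under OSS, so the libraries of the conditions did not overlap.

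**Figure D1:**
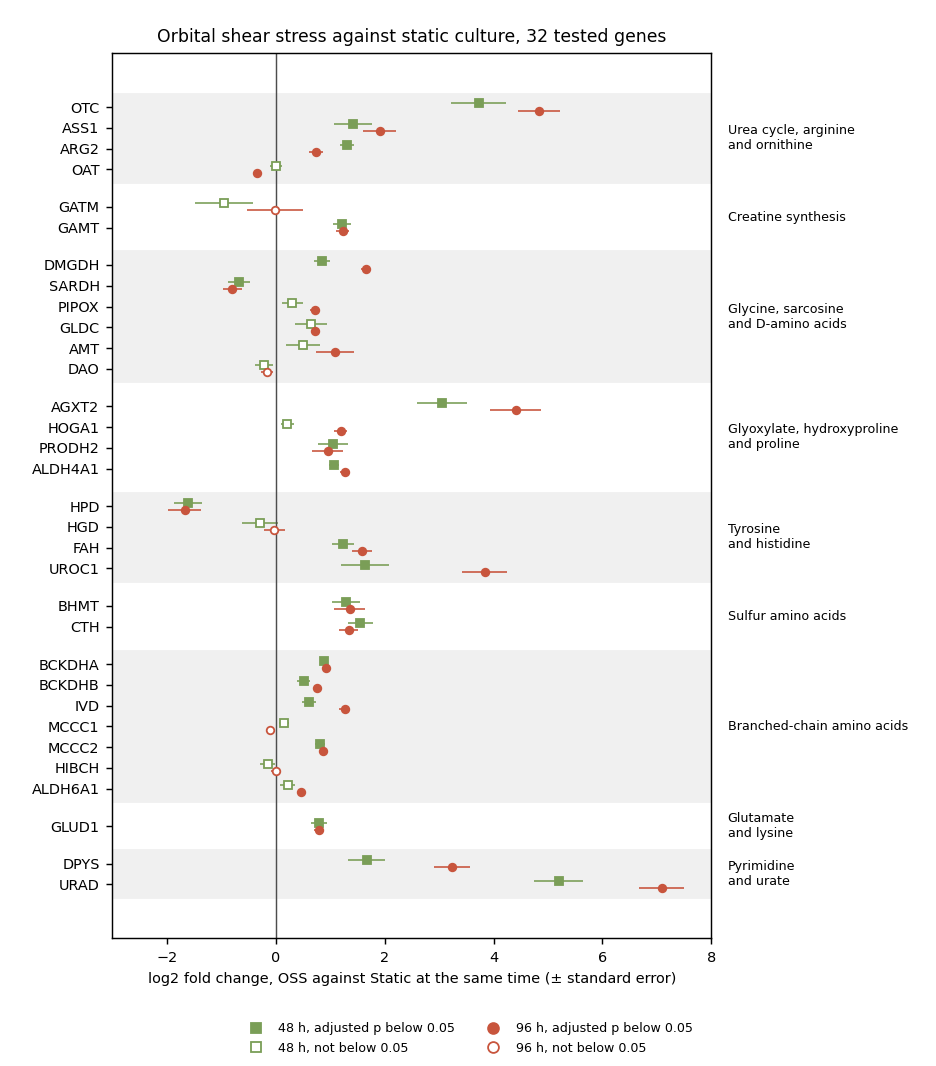
The log2 fold change of OSS against Static for each of the 32 tested enzymes, at 48 h (squares) and 96 h (circles), with bars of 1 standard error, filled where the edgeR adjusted p was under 0.05 and grouped by pathway. URAD (7.09), OTC (4.84), AGXT2 (4.41), UROC1 (3.83) and DPYS (3.24) lie far to the right at 96 h, and HPD, SARDH and OAT lie left of 0. URAD had to differ, as it passed the filter through its OSS libraries alone.

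Of the urea cycle enzymes, OTC had the largest difference. OTC (ENSMODG00000021104), the mitochondrial enzyme that joins ornithine and carbamoyl phosphate to citrulline, lay at 7.38, 12.6 and 10.9 CPM in Static 96 h and at 346, 379.9 and 160.2 CPM under OSS. At 48 h it had 8.31, 15.7 and 14.6 CPM in static culture and 163, 238 and 112 CPM under OSS. The conditions stood far apart at both times, and the Static 0 h libraries had 7.37, 18.5 and 7.67 CPM. The log2 fold changes were 4.84 (standard error 0.39, adjusted p = 0.000111) at 96 h and 3.73 (standard error 0.51, adjusted p = 3.31e-05) at 48 h. ASS1 (ENSMODG00000012093), which condenses citrulline with aspartate and is strongly expressed in proximal tubule, was the most abundant of the 3 tested urea cycle enzymes per gene length in OSS 96 h. Its levels were 264, 225 and 201 CPM in Static 96 h, and 1266, 806 and 519.6 CPM under OSS. At 48 h the values were 850.0, 469 and 363 CPM in static culture and 2118, 1271 and 1096 CPM under OSS, where replicate 1 was the highest library on both sides. ASS1 was higher by 1.91 (standard error 0.30, adjusted p = 0.00189) at 96 h and 1.41 (standard error 0.35, adjusted p = 0.00397) at 48 h.

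ARG2 (ENSMODG00000009978), the mitochondrial arginase that splits arginine to ornithine and urea, was higher under OSS at both times. It lay at 120.3, 98.7 and 91.0 CPM in Static 96 h and 197, 175 and 147 CPM under OSS, against 95.1, 92.8 and 86.5 and 254, 220.0 and 209 CPM at 48 h. No library of OSS overlapped with static culture at either time, with log2 fold changes of 0.74 (standard error 0.14, adjusted p = 0.00353) and 1.32 (standard error 0.13, adjusted p = 1.64e-06). The other row named ARG2, at a mean of 21.5 CPM in Static 96 h, gave 0.57 (adjusted p = 0.0216) at 96 h and 1.01 (adjusted p = 0.000102) at 48 h, and reads shared between the rows could move between them. The 96 h call of that row was lost without Static 96 h replicate 2 or replicate 3 (adjusted p up to 0.0695 in edgeR).

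OAT (ENSMODG00000016579), which interconverts ornithine and glutamate semialdehyde, is not itself a step of the urea cycle and did not follow OTC, ASS1 and ARG2. Its libraries lay at 264, 267 and 264 CPM in Static 96 h and 223, 211 and 192 CPM under OSS, with a difference of -0.35 (standard error 0.07, adjusted p = 0.00473). At 48 h the values of 278, 276 and 292 CPM in static culture and 311, 286 and 254 CPM under OSS overlapped, with 0.01 (adjusted p = 0.95). OAT was thus the member with the smallest called difference of the 3 that were lower at 96 h. CPS1, the enzyme before OTC that supplies carbamoyl phosphate, was not one of the 37 genes and did not pass the test, at means of 0.442 CPM in Static 96 h and 2.22 CPM under OSS (log2 fold change 2.30, standard error 0.86, adjusted p = 0.0574).

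Creatine is made in a pair of steps, of which only the later was called at 96 h. GAMT (ENSMODG00000005167), which methylates guanidinoacetate to creatine, lay at 48.9, 36.0 and 39.7 CPM in Static 96 h and 101, 89.7 and 102 CPM under OSS, and was higher by 1.23 (standard error 0.12, adjusted p = 0.000213). GAMT was higher by 1.22 (standard error 0.17, adjusted p = 4.43e-05) at 48 h. GATM (ENSMODG00000017640), which makes guanidinoacetate from arginine and glycine, lay at 163, 147 and 67.6 CPM in Static 96 h and 201, 126 and 48.2 CPM under OSS. These ranges overlapped, and the log2 fold change was -0.01 (standard error 0.51, adjusted p = 0.988). At 48 h GATM had 762, 509 and 265 CPM in static culture and 379, 236 and 179 CPM under OSS, where the OSS library was below the static library of the same number in each of 3 pairs. The 48 h difference of -0.95 (standard error 0.54, adjusted p = 0.157) was not called, whereas with a block for the replicate number it was called lower, at -0.87 (adjusted p = 0.000434 in edgeR). Its libraries spread widely within a condition, and replicate 3 was the lowest in each of the 6.

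Sarcosine is formed when dimethylglycine loses a methyl group, and DMGDH before it and SARDH after it went in opposite directions. PIPOX, which also uses sarcosine, went with DMGDH at 96 h. DMGDH (ENSMODG00000019727), the mitochondrial flavoenzyme that makes sarcosine, lay at 27.7, 25.8 and 32.3 CPM in Static 96 h and 91.0, 93.3 and 87.2 CPM under OSS. At 48 h the values were 47.9, 39.3 and 49.7 CPM and 84.6, 85.5 and 76.6 CPM. The OSS libraries lay close together and above every static library of the same time, with log2 fold changes of 1.66 (standard error 0.09, adjusted p = 3.59e-05) and 0.85 (standard error 0.14, adjusted p = 0.000161). SARDH (ENSMODG00000013033), which demethylates sarcosine to glycine, was one of the most abundant members in static culture. It lay at 897, 1147 and 1290.3 CPM in Static 96 h and 513, 642 and 769.8 CPM under OSS, with a difference of -0.80 (standard error 0.18, adjusted p = 0.00812). At 48 h the levels of 812, 1023 and 1378 CPM in static culture and 579, 718 and 723 CPM under OSS gave -0.67 (standard error 0.21, adjusted p = 0.0143), a call that was lost when replicate 3 of Static 48 h or 1 of OSS 48 h was left out (adjusted p up to 0.0898). PIPOX (ENSMODG00000019322), a peroxisomal oxidase of sarcosine and pipecolate, was higher at 96 h, with 98.7, 99.6 and 116 CPM in Static 96 h and 185, 166 and 166 CPM under OSS (log2 fold change 0.71, standard error 0.09, adjusted p = 0.000592). At 48 h its libraries overlapped, and the difference was 0.30 (adjusted p = 0.213).

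The glycine cleavage system splits glycine into carbon dioxide, ammonium and a one-carbon unit. GLDC (ENSMODG00000015225), the decarboxylase of this system, lay at 429.7, 425 and 446 CPM in Static 96 h and 642, 746 and 771 CPM under OSS, and was higher by 0.73 (standard error 0.08, adjusted p = 0.000359). With all 18 libraries in the fit, the 96 h difference of GLDC had an adjusted p of 0.0516 in edgeR. At 48 h it had 182, 326 and 514 CPM in static culture and 333, 589 and 682 CPM under OSS, with replicate 3 the highest on both sides (log2 fold change 0.65, standard error 0.29, adjusted p = 0.0777). The block by replicate number brought this to 0.68 (adjusted p = 0.00988). AMT (ENSMODG00000012973), the aminomethyltransferase of the same system, was scarce, at 1.89, 1.27 and 0.783 CPM in Static 96 h and 3.60, 2.69 and 2.09 CPM under OSS. It was higher by 1.08 (standard error 0.35, adjusted p = 0.0345), and the call was lost when replicate 2 or 3 of Static 96 h, or 1 or 2 of OSS 96 h, was left out (adjusted p up to 0.0958). At 48 h AMT differed by 0.50 (adjusted p = 0.21), and by 0.55 (adjusted p = 0.0319) with the block. DAO (ENSMODG00000002784), the peroxisomal oxidase of D-amino acids, lay at 85.9, 105 and 114 CPM in Static 96 h and 93.1, 94.8 and 86.5 CPM under OSS. Its ranges overlapped and it was called at neither time, with -0.16 (adjusted p = 0.256) at 96 h and -0.21 (adjusted p = 0.32) at 48 h.

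Each of the 4 tested enzymes around glyoxylate, hydroxyproline and proline was higher under OSS at 96 h. AGXT2 (ENSMODG00000020379), a mitochondrial aminotransferase that uses glyoxylate and also clears dimethylarginines and beta-aminoisobutyrate, lay at 7.05, 6.35 and 5.21 CPM in Static 96 h and 217, 115 and 63.1 CPM under OSS. At 48 h its levels were 28.2, 10.5 and 11.9 CPM in static culture and 214, 114 and 91.0 CPM under OSS. Under OSS replicate 1 was the highest and replicate 3 the lowest at both times, and still the lowest OSS library was above each static one. The differences were 4.41 (standard error 0.46, adjusted p = 0.000326) and 3.05 (standard error 0.46, adjusted p = 8.16e-05). HOGA1 (ENSMODG00000003963), the aldolase that releases glyoxylate and pyruvate at the end of hydroxyproline breakdown, was called higher at 96 h and not called at 48 h. It lay at 24.6, 28.3 and 33.8 CPM in Static 96 h and 68.2, 63.5 and 67.4 CPM under OSS (log2 fold change 1.20, standard error 0.12, adjusted p = 0.000236), and at 33.1, 34.2 and 39.6 and 38.7, 43.5 and 42.0 CPM at 48 h (log2 fold change 0.22, standard error 0.12, adjusted p = 0.159).

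PRODH2 (ENSMODG00000014046), which opens hydroxyproline breakdown, was the scarcest tested enzyme per gene length in OSS 96 h. It lay at 0.813, 1.41 and 1.45 CPM in Static 96 h and 2.90, 2.44 and 1.86 CPM under OSS. It was higher by 0.95 (standard error 0.28, adjusted p = 0.026) at 96 h and 1.05 (standard error 0.28, adjusted p = 0.00548) at 48 h, and the 96 h call was lost without OSS 96 h replicate 1 or 2 (adjusted p up to 0.0732). ALDH4A1 (ENSMODG00000020887), the dehydrogenase shared by the proline and hydroxyproline routes, lay within 57.8 to 61.3 CPM in Static 96 h and had 156, 150.4 and 128 CPM under OSS. At 48 h it had 82.4, 70.5 and 73.4 CPM in static culture and 168, 158 and 148 CPM under OSS. All of its OSS libraries were above the static ones, with differences of 1.27 (standard error 0.09, adjusted p = 6.61e-05) and 1.07 (standard error 0.10, adjusted p = 8.39e-07). Among the steps from hydroxyproline to glyoxylate, PRODH2, ALDH4A1 and HOGA1 were thus higher at 96 h, as was AGXT2, by log2 values between 0.95 and 4.41.

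**Figure D2:**
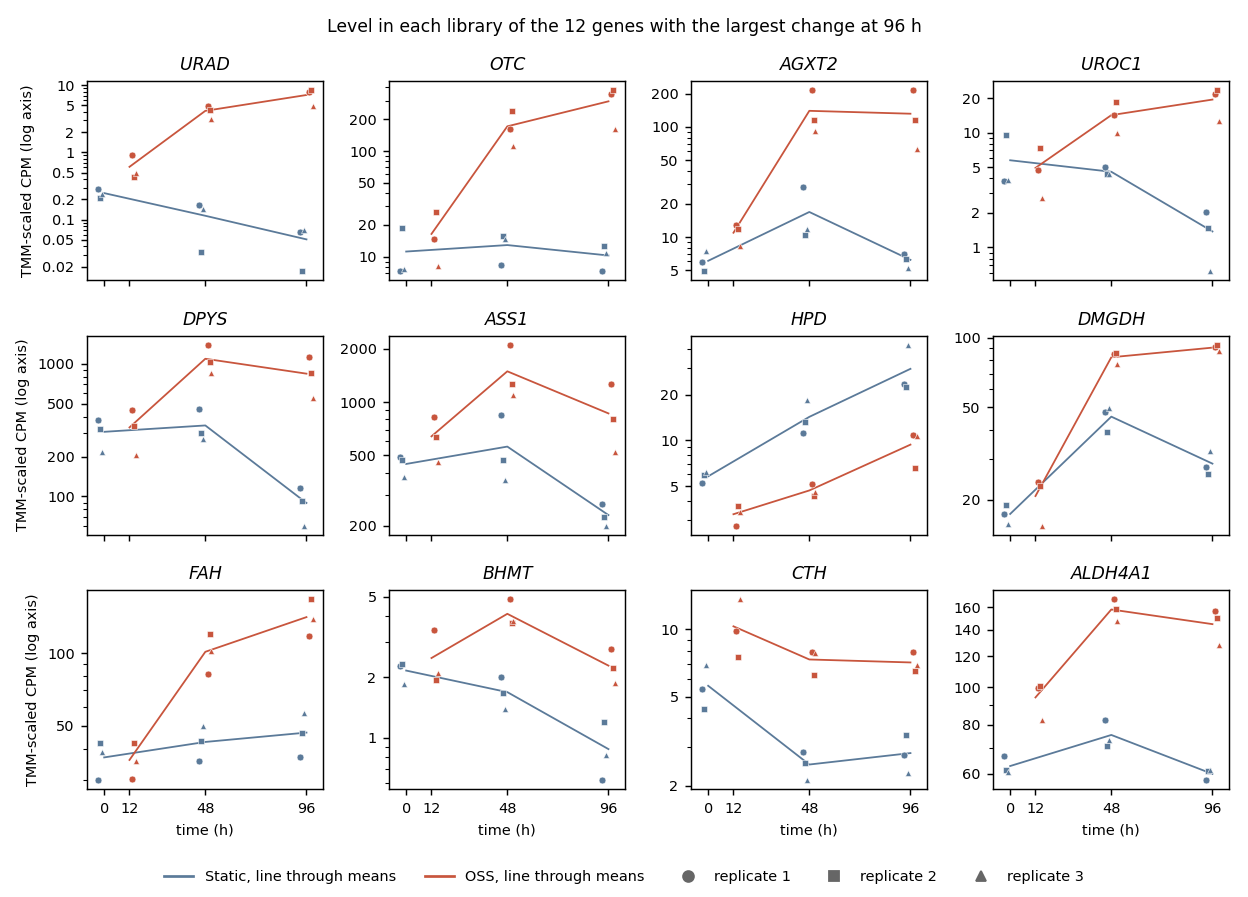
TMM-scaled CPM (log axis) against time in each library for the 12 enzymes with the largest called log2 fold changes at 96 h, Static in blue and OSS in red, with a marker shape per replicate and lines through the means of 3 libraries. OTC, AGXT2, DPYS and DMGDH climb between 12 and 48 h under OSS, while the static means of DPYS, ASS1 and UROC1 lie below their 48 h means at 96 h, a step that edgeR did not call for any of these genes, and HPD lies above its OSS level in static culture.

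Tyrosine breakdown held enzymes called in both directions. HPD (ENSMODG00000012143), the dioxygenase that forms homogentisate, was lower under OSS, with 23.6, 22.5 and 42.8 CPM in Static 96 h and 10.8, 6.60 and 10.7 CPM under OSS. Levels at 48 h were 11.1, 13.3 and 18.4 CPM in static culture and 5.20, 4.30 and 4.55 CPM under OSS. The highest OSS library stayed below the lowest static one at both times, with -1.67 (standard error 0.30, adjusted p = 0.00336) and -1.61 (standard error 0.26, adjusted p = 0.000127). HGD (ENSMODG00000018230), which opens the homogentisate ring, lay at 16.0, 24.1 and 16.9 CPM in Static 96 h and 18.1, 22.7 and 15.4 CPM under OSS. The libraries overlapped, with replicate 2 the highest in both conditions, and the differences were -0.02 (standard error 0.20, adjusted p = 0.927) at 96 h and -0.29 (adjusted p = 0.496) at 48 h. FAH (ENSMODG00000019427), which cleaves fumarylacetoacetate to fumarate and acetoacetate, was higher under OSS. It lay at 37.3, 46.7 and 56.7 CPM in Static 96 h and 117, 167 and 138 CPM under OSS, and at 35.9, 43.1 and 49.7 and 81.5, 120.3 and 102 CPM at 48 h. Its differences were 1.58 (standard error 0.18, adjusted p = 0.000451) and 1.24 (standard error 0.20, adjusted p = 0.000141).

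UROC1 (ENSMODG00000007413), the urocanase of histidine breakdown, was scarce in static culture and higher under OSS. It lay at 2.04, 1.47 and 0.627 CPM in Static 96 h and 21.9, 23.7 and 12.8 CPM under OSS, and at 5.02, 4.35 and 4.33 and 14.3, 18.5 and 9.96 CPM at 48 h. The conditions did not overlap at either time, with 3.83 (standard error 0.42, adjusted p = 0.000373) and 1.64 (standard error 0.44, adjusted p = 0.00657). The Static 0 h libraries had 3.82, 9.57 and 3.87 CPM. HAL and AMDHD1, the steps before and after it in the histidine route, were listed among related enzymes and lay under the filter.

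Both tested enzymes of sulfur amino acid metabolism were higher under OSS at 48 and 96 h, at low levels. BHMT (ENSMODG00000019726), which remethylates homocysteine with betaine and yields dimethylglycine, lay at 0.615, 1.20 and 0.818 CPM in Static 96 h and 2.75, 2.23 and 1.86 CPM under OSS (log2 fold change 1.36, standard error 0.29, adjusted p = 0.00694). BHMT was higher by 1.29 (standard error 0.27, adjusted p = 0.00101) at 48 h. BHMT2, a related gene, had a row of its own and gave 1.16 (standard error 0.26, adjusted p = 0.00832) at 96 h, and reads that match both genes could count for either. CTH (ENSMODG00000000512), which cleaves cystathionine to cysteine, lay at 2.75, 3.38 and 2.28 CPM in Static 96 h and 7.89, 6.49 and 6.96 CPM under OSS. At 48 h its values were 2.83, 2.53 and 2.12 CPM in static culture and 7.92, 6.27 and 7.81 CPM under OSS. No libraries overlapped between conditions, with 1.34 (standard error 0.17, adjusted p = 0.000718) and 1.56 (standard error 0.22, adjusted p = 5.58e-05).

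Branched-chain amino acids are oxidised by a shared dehydrogenase complex and then by separate chains for leucine and valine. BCKDHA and BCKDHB, the 2 subunits of its decarboxylase, were both higher under OSS. BCKDHA (ENSMODG00000008538) lay at 72.6, 78.7 and 82.0 CPM in Static 96 h and 143, 149 and 149.6 CPM under OSS (log2 fold change 0.92, standard error 0.06, adjusted p = 6.76e-05), and BCKDHB (ENSMODG00000018414) at 23.5, 23.8 and 23.8 and 40.1, 40.5 and 40.7 CPM (log2 fold change 0.77, standard error 0.06, adjusted p = 7.76e-05). The libraries of each condition lay within a few CPM of each other for BCKDHB and well apart from the other condition. At 48 h the differences were 0.88 (standard error 0.07, adjusted p = 5.64e-07) for BCKDHA and 0.51 (standard error 0.12, adjusted p = 0.0027) for BCKDHB. IVD (ENSMODG00000000330), the acyl-CoA dehydrogenase of the leucine chain, lay at 39.9, 47.8 and 48.1 CPM in Static 96 h and 109.8, 120.4 and 97.4 CPM under OSS, higher by 1.27 (standard error 0.11, adjusted p = 0.000127), and by 0.61 (standard error 0.14, adjusted p = 0.00184) at 48 h.

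The next leucine step uses a carboxylase of paired subunits, of which only MCCC2 was called. MCCC2 (ENSMODG00000001640), the non-biotin subunit, lay at 92.6, 104 and 102 CPM in Static 96 h and 176, 197 and 174 CPM under OSS, higher by 0.87 (standard error 0.08, adjusted p = 0.000151). It was higher by 0.82 (standard error 0.09, adjusted p = 5.3e-06) at 48 h. MCCC1 (ENSMODG00000021288), the biotin-carrying subunit, lay at 216, 197 and 196 CPM in Static 96 h and 191, 186 and 192 CPM under OSS. Its OSS libraries were all slightly below the static ones at 96 h and all above them at 48 h (191, 187 and 190.2 CPM in static culture, 219, 202 and 211 CPM under OSS), and neither difference passed the test (log2 fold change -0.10, standard error 0.06, adjusted p = 0.193, and at 48 h 0.16, adjusted p = 0.171). In the valine chain, HIBCH (ENSMODG00000011566), which frees 3-hydroxyisobutyrate from its CoA, lay at 117, 107 and 110.5 CPM in Static 96 h and 125, 108 and 103 CPM under OSS (log2 fold change 0.01, standard error 0.08, adjusted p = 0.955). Its ranges overlapped at both times. ALDH6A1 (ENSMODG00000006429), the methylmalonate semialdehyde dehydrogenase of valine and thymine breakdown, was the most abundant member in both conditions per length. It lay at 1149, 1200.0 and 1332 CPM in Static 96 h and 1698, 1728 and 1646 CPM under OSS, higher by 0.46 (standard error 0.07, adjusted p = 0.00189), and differed by 0.22 (adjusted p = 0.185) at 48 h. GLUD1 (ENSMODG00000024606), the mitochondrial glutamate dehydrogenase that releases ammonium, lay at 99.1, 107 and 109 CPM in Static 96 h and 179.6, 198 and 168 CPM under OSS, higher by 0.79 (standard error 0.08, adjusted p = 0.000252) and, at 48 h, by 0.80 (standard error 0.14, adjusted p = 0.00029).

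The pyrimidine and urate enzymes had the widest range of levels. DPYS (ENSMODG00000005434), the dihydropyrimidinase that opens the ring of dihydrouracil and dihydrothymine, lay at 115, 92.5 and 60.4 CPM in Static 96 h and 1116, 854 and 554 CPM under OSS. At 48 h it had 458, 299.6 and 270.4 CPM in static culture and 1394, 1024 and 851 CPM under OSS. Replicate 1 was the highest and replicate 3 the lowest in each of these conditions, and no OSS library overlapped with static culture. The differences were 3.24 (standard error 0.32, adjusted p = 0.000265) and 1.67 (standard error 0.34, adjusted p = 0.000964). DPYS was abundant while the row of UPB1, the enzyme after it, had 0 counts, which cannot tell absence from reads not placed there.

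URAD (ENSMODG00000024150), a decarboxylase in the breakdown of urate to allantoin, was nearly absent in static culture. It lay at 0.0659, 0.0174 and 0.0696 CPM in Static 96 h and 7.92, 8.53 and 4.95 CPM under OSS, and at 0.167, 0.0328 and 0.144 and 4.92, 4.33 and 3.19 CPM at 48 h. Static levels lay around the level of 3 counts per library (0.0522 to 0.0659 CPM in Static 96 h), so the ratio of pooled counts is given beside the fitted fold change. Summed over 3 libraries, 1320 counts in OSS 96 h stood against 8 in Static 96 h, a ratio of 139 with a 95% exact interval of 70.2 to 322. At 48 h, 750 counts stood against 18, a ratio of 37.4 (23.5 to 63.5). These intervals cover counting error only, and they describe a gene that entered the test through its high level under OSS. The fitted log2 values were 7.09 (standard error 0.41) and 5.20 (standard error 0.45). The filter had fixed their direction, so no adjusted p is given for them.

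Few differences were called after the first 12 h. Against Static 0 h, 4 of the 32 enzymes were higher in OSS 12 h and 2 were lower, where 13.1% of all tested genes were called, 6.45% higher and 6.65% lower. AGXT2 lay at 5.88, 4.94 and 7.42 CPM in Static 0 h and 12.8, 11.7 and 8.28 CPM in OSS 12 h (log2 fold change 0.87, standard error 0.21, adjusted p = 0.0382). ARG2 lay at 149.6, 124 and 131 and 227, 203 and 185 CPM (log2 fold change 0.63, standard error 0.11, adjusted p = 0.0163), and ALDH4A1 at 66.6, 61.3 and 60.6 and 99.6, 100.5 and 82.2 CPM (log2 fold change 0.61, standard error 0.10, adjusted p = 0.0154). In all of these the OSS libraries were above the static ones, as they were for BCKDHA (log2 fold change 0.34, standard error 0.08, adjusted p = 0.0303). HOGA1 was lower, from 23.4, 31.0 and 22.5 to 15.2, 14.3 and 15.0 CPM (log2 fold change -0.76, standard error 0.13, adjusted p = 0.0173), and so was HPD, from 5.27, 5.94 and 6.20 to 2.75, 3.68 and 3.37 CPM (log2 fold change -0.80, standard error 0.17, adjusted p = 0.0269). Each of these 6 calls was lost with at least one library left out, and the count was 1 when Static 0 h replicate 2 was left out and 0 when it was OSS 12 h replicate 1 or 2. With the replicate number as a block, 13 enzymes were higher and 7 lower, where 41.2% of all genes were called in that fit. Among the 20 were CTH (0.89, adjusted p = 0.000179 in edgeR, against 0.91, adjusted p = 0.0531 without the block) and GATM (-0.69, adjusted p = 2.75e-05 in edgeR, against -0.69, adjusted p = 0.29). The other 8 genes that only the block called higher were OTC, ASS1, GAMT, PIPOX, GLDC, BCKDHB, MCCC1 and URAD, and the other 4 it called lower were OAT, HGD, IVD and HIBCH. URAD had 115 counts in OSS 12 h and 46 in Static 0 h, a ratio of 2.36 with an exact counting interval of 1.66 to 3.40.

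Most of the calls within OSS came between 12 and 48 h, when 25 of the 32 enzymes rose and 0 fell. Of all tested genes 27.1% were called over this step, 14.3% higher and 12.8% lower, and with total counts in place of TMM factors 1322 genes rose and 2354 fell. The median log2 fold change of the enzymes was 0.81. AGXT2 rose from 12.8, 11.7 and 8.28 CPM to 214, 114 and 91.0 CPM (log2 fold change 3.68, standard error 0.49, adjusted p = 0.00101), OTC from 14.7, 26.4 and 8.13 to 163, 238 and 112 CPM (log2 fold change 3.38, standard error 0.50, adjusted p = 0.0016), and all 48 h libraries of both were above all at 12 h. URAD went up by 2.78 (standard error 0.33), a direction that its way through the filter had fixed. PIPOX (log2 fold change 2.16, standard error 0.21, adjusted p = 0.000277), DMGDH (log2 fold change 1.99, standard error 0.14, adjusted p = 9.36e-05), DAO (log2 fold change 1.97, standard error 0.14, adjusted p = 9.36e-05) and DPYS (log2 fold change 1.72, standard error 0.33, adjusted p = 0.00509) also rose. The calls of ASS1, OAT, GAMT, SARDH, GLDC and UROC1 were lost with some library left out, with adjusted p up to 0.135 (GLDC). CTH, the only enzyme with a negative value, gave -0.50 (adjusted p = 0.102), and with the block -0.48 (adjusted p = 0.0217). BHMT, GATM and ARG2 were called higher over this step only with the block (adjusted p = 0.00239, 0.0101 and 0.0453).

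Static culture had a rise of its own over the first 48 h. There 11 enzymes rose and 2 fell, where 30.1% of all genes were called, 14.8% higher and 15.3% lower. With total counts in place of TMM factors the split over all genes was 1488 that rose and 2508 that fell. Of the 25 enzymes that rose under OSS between 12 and 48 h, 10 also rose in static culture between 0 and 48 h, namely AGXT2, ALDH6A1, BCKDHB, DAO, DMGDH, HGD, HOGA1, IVD, PIPOX and SARDH. The intervals start at different times, so the values are given side by side. PIPOX rose by 2.17 (standard error 0.17, adjusted p = 7.89e-05) in static culture and 2.16 under OSS, DAO by 2.01 (standard error 0.18, adjusted p = 0.000144) and 1.97, and HGD by 1.52 (standard error 0.30, adjusted p = 0.00561) and 1.60. None of these genes was called between OSS and static culture at 48 h. SARDH rose by 1.11 (standard error 0.23, adjusted p = 0.00671) in static culture, from 393, 615 and 459.6 to 812, 1023 and 1378 CPM, and by 0.60 under OSS. HPD was the one enzyme that rose in static culture (log2 fold change 1.28, standard error 0.27, adjusted p = 0.00807) and was not called over the OSS step (0.51, adjusted p = 0.0966). CTH fell in static culture, from 5.41, 4.43 and 6.95 to 2.83, 2.53 and 2.12 CPM (log2 fold change -1.18, standard error 0.23, adjusted p = 0.00551), and so did ARG2 (log2 fold change -0.57, standard error 0.12, adjusted p = 0.00698), so their higher OSS levels at 48 h stood beside a decline in static culture. Leaving out a library ended the static calls of AGXT2 (Static 0 h replicate 2), HOGA1 and BCKDHB (adjusted p up to 0.143). With the block, ALDH4A1, MCCC1 and GATM were also called higher (adjusted p = 0.0442, 0.0279 and 0.000603) and GAMT lower (adjusted p = 0.0191).

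**Figure D3:**
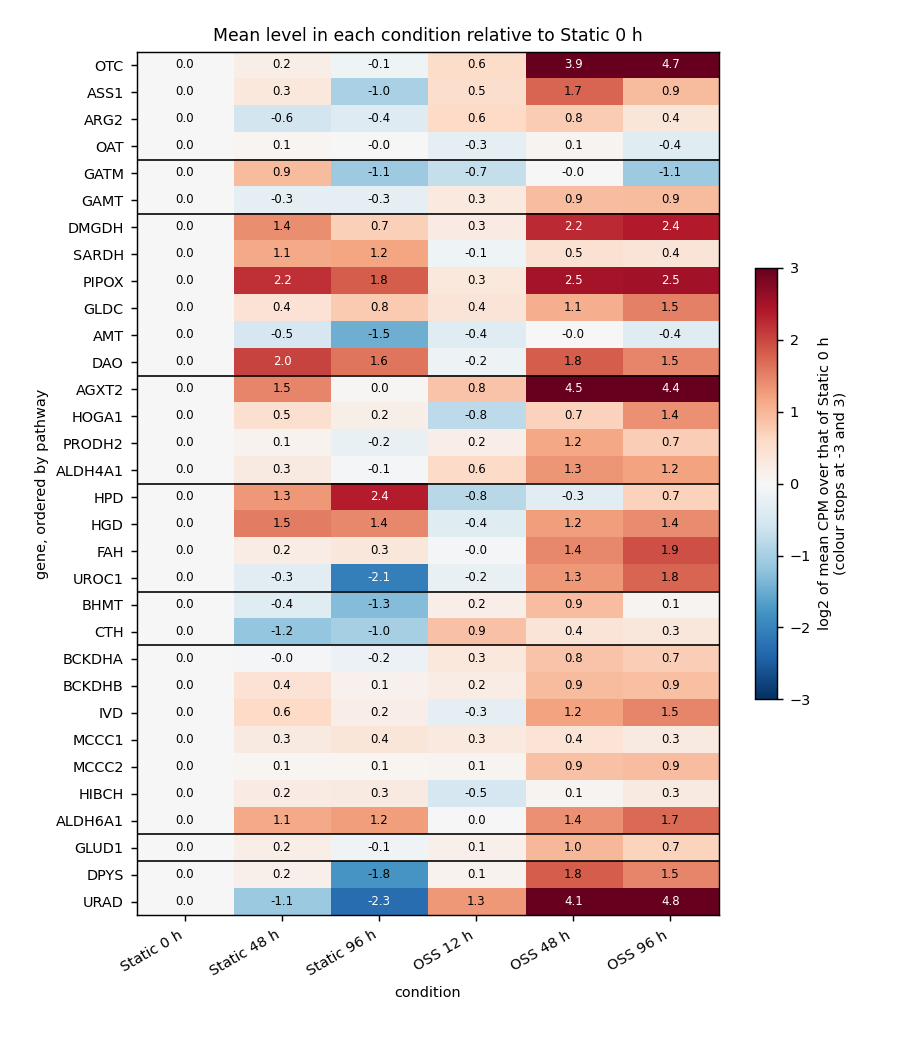
The log2 of each enzyme's mean CPM in a condition over its mean in Static 0 h, with the value in each cell and red for higher and blue for lower levels, in pathway order. DAO, PIPOX and HGD are red in both culture conditions from 48 h on, OTC, AGXT2, DPYS and URAD are red in OSS only or mainly, and GATM, AMT, UROC1, DPYS and URAD are blue in Static 96 h.

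Between 48 and 96 h only 1 enzyme was called under OSS in the fit without the block. HOGA1 rose from 38.7, 43.5 and 42.0 CPM to 68.2, 63.5 and 67.4 CPM, a log2 fold change of 0.68 (standard error 0.06, adjusted p = 0.00905), where 1.14% of all genes were called, 0.678% higher and 0.467% lower. The call was lost without OSS 48 h replicate 1 or replicate 3 (adjusted p up to 0.0868). With the block, 8 enzymes rose and 8 fell, where 19.2% of all genes were called in that fit. Those that rose with it were OTC, HOGA1, HPD, FAH, UROC1, IVD, ALDH6A1 and URAD, led by HPD (0.98, adjusted p = 0.00799, against 1.00, adjusted p = 0.0531 without it), and those that fell were ASS1, ARG2, OAT, GATM, DAO, BHMT, GLUD1 and DPYS, led by GATM (-1.24, adjusted p = 0.00359, against -1.09, adjusted p = 0.279). DESeq2 called 6 (ARG2, OAT, HOGA1, HPD, BHMT and ALDH6A1) and 8.96% of all genes to which it gave an adjusted p.

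In static culture 0 enzymes were called from 48 to 96 h by edgeR, where 0.0389% of all genes were called, while 15 of the 32 had an unadjusted p under 0.05, as had 13.6% of all genes. DESeq2 called 8 enzymes and 2.23% of all genes, and the block 4 enzymes and 0.802% of all genes. Log2 fold changes were negative for 23 of the 32, with a median of -0.32 beside -0.00 over all tested genes. All 3 libraries at 96 h lay below all at 48 h for 13 enzymes, which was the case for 10.1% of all genes. DPYS went from 458, 299.6 and 270.4 to 115, 92.5 and 60.4 CPM (log2 fold change -1.96, standard error 0.30, adjusted p = 0.0967) and had an adjusted p of 0.000428 in edgeR with the block. GATM went from 762, 509 and 265 to 163, 147 and 67.6 CPM (log2 fold change -2.04, standard error 0.48, adjusted p = 0.203), with 0.000428 as the adjusted p under the block, and ASS1 gave -1.30 (adjusted p = 0.197) without and an adjusted p of 0.0268 with it. HPD went the other way, from 11.1, 13.3 and 18.4 to 23.6, 22.5 and 42.8 CPM (log2 fold change 1.04, standard error 0.27, adjusted p = 0.24), and was called with the block (adjusted p = 0.0302).

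Whether the gap between OSS and static culture changed from 48 to 96 h was tested as an interaction over all 18 libraries. By edgeR 0 of the 32 enzymes passed, as did 0% of all genes, while 9 reached an unadjusted p under 0.05, as did 12.3% of all genes, and DESeq2 called 3 (DMGDH, HOGA1 and UROC1) and 1.9% of all genes to which it gave an adjusted p. In edgeR without the block, the 5 genes called higher at 96 h and not at 48 h were thus not shown to differ between these times. HOGA1, one of the 5, was called by DESeq2 and with the block. The widest gains were in UROC1 (log2 fold change 2.19, standard error 0.63, adjusted p = 0.213), URAD (log2 fold change 1.90, standard error 0.73, adjusted p = 0.311) and DPYS (log2 fold change 1.57, standard error 0.47, adjusted p = 0.219). With the block 1.07% of all genes were called, and HOGA1 (0.99, adjusted p = 0.0149), UROC1 (2.28, adjusted p = 0.0201), IVD (0.66, adjusted p = 0.0406) and DPYS (1.55, adjusted p = 7.97e-05) were called as widening. ARG2 was called as narrowing (-0.57, adjusted p = 0.0149, against -0.57, adjusted p = 0.227 without the block).

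Enzymes of the same complex or route were also set against each other within each library, which removes the scaling between libraries. The 3 ratios were chosen after the values were seen. MCCC2 stood at 0.905 to 1.06 times the CPM of MCCC1 in OSS 96 h and at 0.429 to 0.530 times in Static 96 h, and at 0.770 to 0.944 and 0.448 to 0.565 times at 48 h. DMGDH was 0.113 to 0.178 of SARDH in OSS 96 h and 0.0225 to 0.0309 in Static 96 h, with 0.106 to 0.146 and 0.0361 to 0.0589 at 48 h. FAH was 10.8 to 25.2 times HPD in OSS 96 h and 1.32 to 2.08 times in Static 96 h, with 15.7 to 28.0 and 2.69 to 3.24 at 48 h. These ratios mix genes of different length, so they compare conditions and not the genes. In each of the 6 comparisons the OSS and static libraries did not overlap. The exact two-sided permutation test gave p = 0.1 (adjusted 0.1 over 6 tests), the smallest that 3 against 3 libraries allow. For DMGDH to SARDH and FAH to HPD the single-gene libraries had already separated in opposite directions at both times. As the pairs were picked on these values, neither the gap nor the test adds to the single-gene results.

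**Figure D4:**
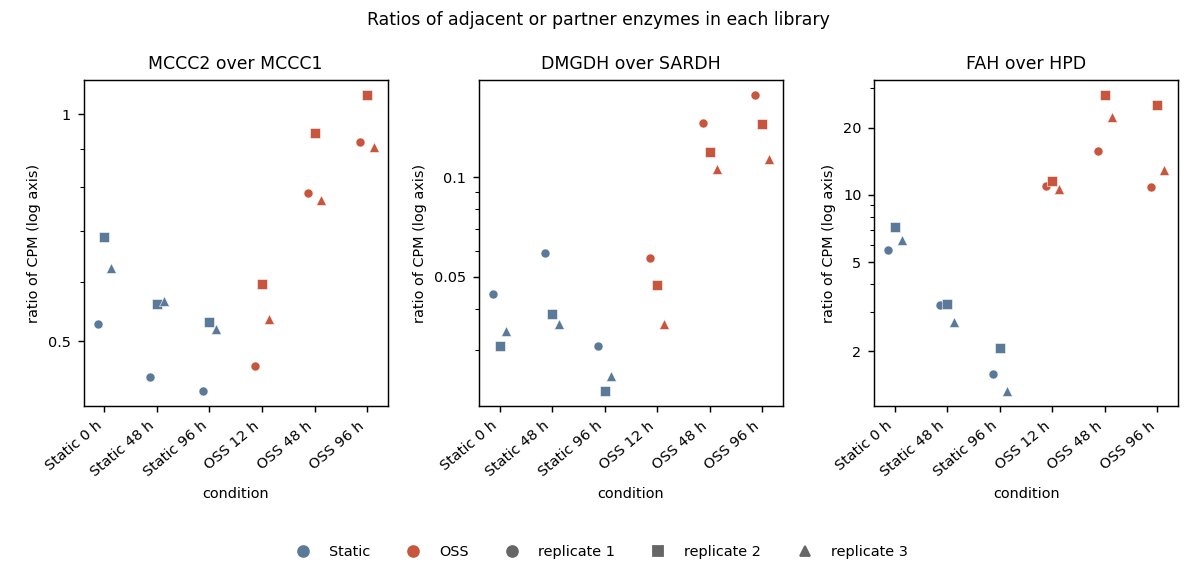
The ratio of CPM of MCCC2 to MCCC1, DMGDH to SARDH and FAH to HPD (log axis) in each of 18 libraries, Static in blue and OSS in red, with a marker shape per replicate. At 48 and 96 h all OSS points lie above all static points in each panel, and the FAH to HPD ratio of static culture lies at a smaller value at 96 h than at 0 h.

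Compared with each other per kilobase of deposited gene length, the enzymes covered a wide span. In Static 96 h ALDH6A1 led with 760.2 ± 58.4 CPM per kb (SD, n = 3), followed by SARDH with 162 ± 29.1, OAT with 121 ± 0.655 and GLDC with 119 ± 2.96. OAT and GLDC lay within their spread of each other. In OSS 96 h ALDH6A1 had 1047 ± 25.5 CPM per kb, ASS1 256 ± 112, DPYS 247 ± 82.5 and GLDC 198 ± 18.7, where ASS1, DPYS and GLDC overlapped in their spread. OTC stood at rank 26 of 32 in Static 96 h and rank 8 in OSS 96 h, DPYS at ranks 14 and 3, and SARDH at ranks 2 and 11. ALDH6A1 alone made up 25.3 to 26.9% of the summed CPM of the 32 enzymes in Static 96 h and 20.5 to 24.8% in OSS 96 h, while the share of DPYS was 1.22 to 2.56% and 8.36 to 13.5%.

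**Figure D5:**
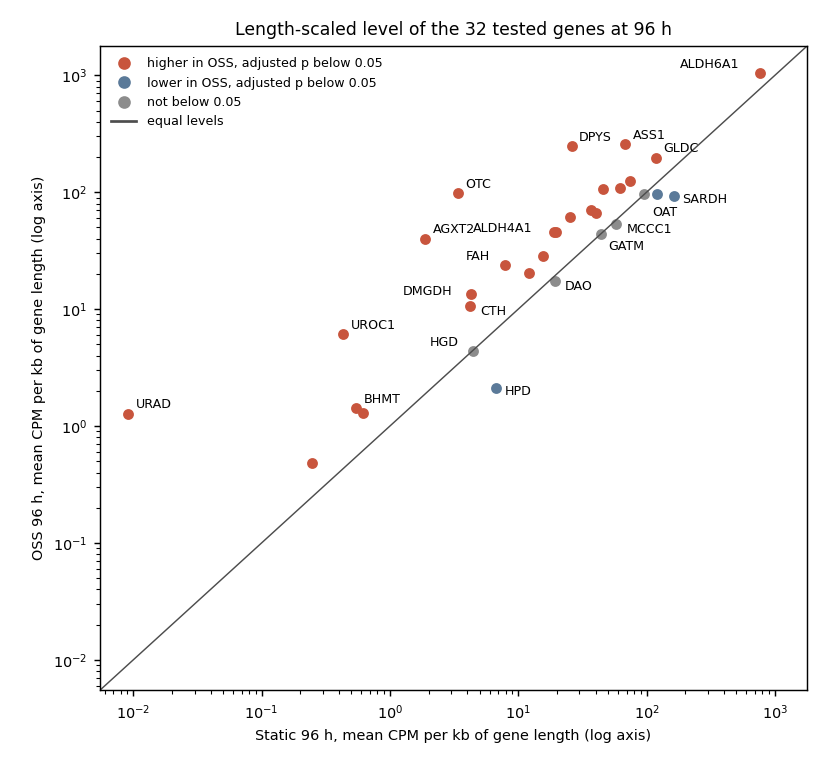
Mean CPM per kilobase of gene length in OSS 96 h against Static 96 h (log axes) for the 32 tested enzymes, coloured by the edgeR call, with a line at equal levels. ALDH6A1 is at the top of both axes, OTC, AGXT2, UROC1, DPYS and URAD lie far above the line, and HPD, SARDH and OAT lie under it.

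Libraries of the same number ranked alike across conditions for several enzymes. Same-numbered libraries also deviated together over all tested genes (45 of 45 pairs), so this order is not particular to these enzymes. How many of all genes held such an order was not counted. ASS1, ARG2, GATM and DPYS were highest in replicate 1 in 6 of 6 conditions, OTC and HGD in replicate 2, and GLDC in replicate 3, while SARDH and FAH were lowest in replicate 1 in 6 of 6. The spread within a condition was wide for some, as in OSS 96 h, where OTC ranged from 160.2 to 379.9 CPM and AGXT2 from 63.1 to 217 CPM.

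A list of 94 further enzymes and carriers of the same routes was counted for comparison, of which 68 were tested, 14 lay under the filter and 12 had no row. At 96 h, 37 were higher under OSS, 14 lower and 17 not called (25.5% higher and 26.2% lower over all genes), with a median log2 fold change of 0.35. At 48 h, 29 were higher, 11 lower and 28 not called (23.5% and 24.5% over all genes), and over OSS 12 to 48 h 42 rose and 2 fell (14.3% and 12.8%). In static culture 29 rose and 4 fell from 0 to 48 h (14.8% and 15.3% over all genes), and in both steps from 48 to 96 h 0 were called by edgeR, although 17 reached an unadjusted p under 0.05 in each, as did 19.8% of all genes under OSS and 13.6% in static culture. HAO1, the glycolate oxidase that makes glyoxylate in peroxisomes, gave 2.56 (standard error 0.35, adjusted p = 0.000943) at 96 h and GPT2, the mitochondrial alanine aminotransferase, 2.31 (standard error 0.16, adjusted p = 7.13e-05). LDHA, whose enzyme can turn glyoxylate to oxalate, gave -2.35 (standard error 0.19, adjusted p = 0.000122) on the most abundant of several rows with that name. The creatine carrier SLC6A8 gave -1.77 (standard error 0.15, adjusted p = 0.000123), and all 3 tested creatine-related genes of this list were lower. Glyoxylate-related genes of the list were higher for 5 of 7 and lower for 2, and branched-chain ones higher for 9 of 14 and lower for 2.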

How the data were processed

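RNA of 18 libraries was analysed in 6 conditions, grouped by the condition and time in the labels. Per the labels, rRNA was removed, stranded total RNA libraries were made with the TruSeq kit, and read pairs came from an Illumina NextSeq. Adapters were trimmed by the authors (cutadapt), and reads were placed on the Monodelphis domestica assembly MonDom5 with base mismatches allowed (TopHat2). Those within each gene were counted (featureCounts, Subread). How completely the reads of each gene were placed was not tested, which also limits comparisons between genes. Tool versions, strand setting and annotation release are not given in the sources used here. The deposited values are raw counts per Ensembl gene, with a gene length beside each gene that was used only to set levels of different genes side by side. Gene names were those of the deposited sheet. The names of ARG2, OAT, ALDH4A1, CTH, BCKDHA and GLUD1 stood in its human column, that of BHMT came from Entrez Gene, and the others were opossum names.

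Rows with more than 1 CPM in at least 6 libraries were tested in R 4.3.3 with edgeR 4.0.16 (TMM, trended dispersions, quasi-likelihood F-test in its legacy form), with Benjamini-Hochberg adjustment over all tested rows and a threshold of 0.05. Standard errors follow from the fold change and the root of F. The 96 h comparison, and that of OSS 12 h with Static 0 h, used the 6 libraries compared. Time steps within OSS or Static used that arm alone, and the 48 h comparison and the interaction used all 18 libraries. The fitting code was tested on simulated data. Alternatives were RLE factors, total counts, DESeq2 1.42.0, no filter beyond 1 count, a block for the replicate number, other libraries in the fit, a deposited sheet with 1 entry per gene name, and each library left out. Same-numbered libraries deviated together from the condition means in 45 of 45 pairs (correlation across genes 0.244 to 0.786), so the numbers pair the libraries, which the labels do not explain. Replicate pairs differed by more than counting error (chi-square per gene at least 25.1).

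The 37 genes, the related list and the marker lists were chosen with earlier results of these data known. Values in each library are given for the 12 largest called changes at 96 h and for members that went against their pathway, and for others where space allowed. Up to 4 related genes with the largest called changes at 96 h are named, with CPS1 and BHMT2 added after their values were seen.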

Additional observations from a re-analysis of the deposited data

Results flagged for a closer look

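The late change of DMGDH, the difference between its change from 48 to 96 h under OSS and in static culture, was 0.81 on the log2 scale. It stood out because all 3 OSS libraries went up between these times while all 3 static libraries went down. The interaction test in edgeR did not pass (adjusted p = 0.197), and DESeq2 called it.

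The late change of MCCC1 was -0.25 on the log2 scale, with all 3 OSS libraries below and all 3 static libraries above their 48 h values at 96 h. The interaction test in edgeR did not pass here either (adjusted p = 0.438).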

How the results depend on the processing

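Counts of called enzymes in OSS 96 h against Static 96 h, OSS 48 h against Static 48 h, OSS 12 to 48 h and Static 0 to 48 h stayed within 1.5 times the main count under every alternative run. With each library left out in turn they were 25 to 28, 21 to 22, 20 to 24 and 11 to 13. The other counts moved. OSS 12 h against Static 0 h gave 6 in the main fit, 20 with the replicate block and 0 to 8 with a library left out. OSS 48 to 96 h gave 1, then 16 with the block, 6 by DESeq2, 2 without the filter, 2 with all 18 libraries in the fit and 0 to 1 with a library left out. Static 48 to 96 h gave 0, then 4 with the block, 8 by DESeq2, 2 with all 18 libraries in the fit and 0 to 0 with a library left out. The late change of OSS minus Static gave 0, then 5 with the block, 3 by DESeq2 and 0 to 0 with a library left out. The cause of these moves was not tested.

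No direction of a called value turned under any alternative. Of the values of single genes under all alternatives, 3449 stayed on the same side of the threshold, called or not, 101 gained a call and 72 lost one. Beyond the genes named with it in the report, the block changed no other call at 48 or 96 h. With 3 libraries a condition, each a pool, the p-values set differences between conditions against the spread between pools. Without the block, that spread includes the part shared by same-numbered libraries. URAD rests on 1 to 16 counts per static library.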
